A study of Bos taurus with 20 samples.

Results

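The S100 calcium-binding proteins were followed in whole blood of pregnant cows. The 7 symbols S100A4, S100A6, S100A8, S100A9, S100A10, S100A11 and S100A12 were looked up in the NCBI cattle gene table and matched to the Entrez identifiers of the count files. An identifier was found for 6 of the 7, out of 37063 genes counted. S100A6 had no entry under that symbol in the table used and is not analysed here. The 6 genes measured passed the filter on low counts, which asked for at least 10 counts in at least 5 cows.

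Whole blood was collected at day 63 of gestation from 20 recipient cows, each carrying a female beef fetus from an in vitro embryo made with X-sorted semen, and 1 RNA library per cow was sequenced. The recipients were described as lactating dairy cows, whereas a table of the study gives Angus as the recipient breed. The study also gives a range of ages for the recipients, and age was not part of any fit below. There was no untreated or non-pregnant group, and calf birth weight (BW) alone differed between the labels. BW was 45.0 ± 10.1 kg (SD, n = 20) and ran from 30 to 72.5 kg. Each cow is named below by the BW of its calf. Total counts per cow lay between 24632077 and 39892111, and neither the labels nor the methods name a sequencing batch. The blood was not separated into cell types, so fewer cells of a type and less RNA per cell cannot be told apart in any value below.

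S100 proteins are small proteins with a pair of EF-hand motifs, most of which bind calcium and then expose a surface that docks onto a partner protein. S100A8 and S100A9 pair to form calprotectin, an abundant cytosolic protein of neutrophils and monocytes that sequesters zinc and manganese from microbes and, once released, acts as an alarm signal. In cattle, as in people, S100A8, S100A9 and S100A12 are known as phagocyte proteins of inflammation and mastitis, whereas S100A4, S100A10 and S100A11 are made by many cell types. In the cattle gene table (assembly ARS-UCD2.0) the 6 genes lie on 1 chromosome. S100A8, S100A12 and S100A9 follow each other in that order, S100A11 and S100A10 are next to each other, and S100A4 lies between S100A3 and S100A5.

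The calgranulins S100A8, S100A9 and S100A12 differed more than 2-fold between cows and went up and down together from cow to cow. Levels are CPM, counts scaled to a common library size with factors from the trimmed mean of M-values (TMM), and they are not divided by transcript length, so levels of different genes are not compared. S100A12, a ligand of the receptor AGER (RAGE), had 1178 ± 279 CPM (SD, n = 20), with a lowest value of 677, a median of 1242 and a highest value of 1647 CPM. S100A9, the larger subunit of calprotectin, had 379.6 ± 95.4 CPM, from 208.6 through a median of 397.7 to 554.0 CPM. S100A8, its smaller partner, had 68.4 ± 15.2 CPM, from 42.3 through 66.8 to 93.9 CPM. The cow of the 56 kg calf was lowest for all 3 genes. The 5 cows lowest for S100A12 were those of the 56, 46, 49.5, 45 and 43 kg calves, with 677, 762, 794, 834 and 953 CPM. These were also the 5 lowest for S100A9, and 4 of them were among the 5 lowest for S100A8. At the upper end, S100A8 and S100A9 peaked with the 55 kg calf and S100A12 with the 35 kg calf.

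S100A4, known as metastasin, binds the heavy chain of non-muscle myosin and is abundant in motile cells. Its level was 159.5 ± 31.1 CPM (SD, n = 20), with a lowest value of 97.3, a median of 168.4 and a highest value of 198.5 CPM. The dams of the 56 and 46 kg calves were lowest, at 97.3 and 106 CPM, and those of the 50 and 47.4 kg calves highest, at 198.5 and 198.4 CPM. S100A4 thus shared its lowest cow with the calgranulins but not its highest.

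S100A10 and S100A11 varied less between cows. S100A10 (p11) lost calcium binding in its EF hands and is held as a tetramer with annexin A2 at the plasma membrane, where the complex binds plasminogen. Its level was 199.3 ± 22.3 CPM (SD, n = 20), from 147.4 through a median of 201.7 to 238.8 CPM. S100A11 (calgizzarin) binds annexin A1 and takes part in membrane repair. It had 167.2 ± 23.8 CPM, from 114.5 through 171.8 to 206.8 CPM. The cow of the 41.5 kg calf was lowest for both genes, and S100A11 was highest, not lowest, in the cow of the 56 kg calf.

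On a relative scale the 6 genes fell into the more variable and the less variable members. The highest cow exceeded the lowest by 2.66-fold for S100A9, 2.43-fold for S100A12, 2.22-fold for S100A8 and 2.04-fold for S100A4, against 1.81-fold for S100A11 and 1.62-fold for S100A10. The SD of log2(CPM + 1) over the cows was 0.38 for S100A9, 0.36 for S100A12, 0.33 for S100A8 and 0.31 for S100A4, and the median over all genes tested was 0.19. For S100A11 and S100A10 it was 0.21 and 0.17, close to that median. The 6 genes together took 0.143% to 0.284% of a cow's counts, with the minimum for the 56 kg calf's dam and the maximum for the 55 kg calf's. Each member had at least 1087 counts in every cow, so counting error was small beside the spread between cows.

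**Figure D1:**
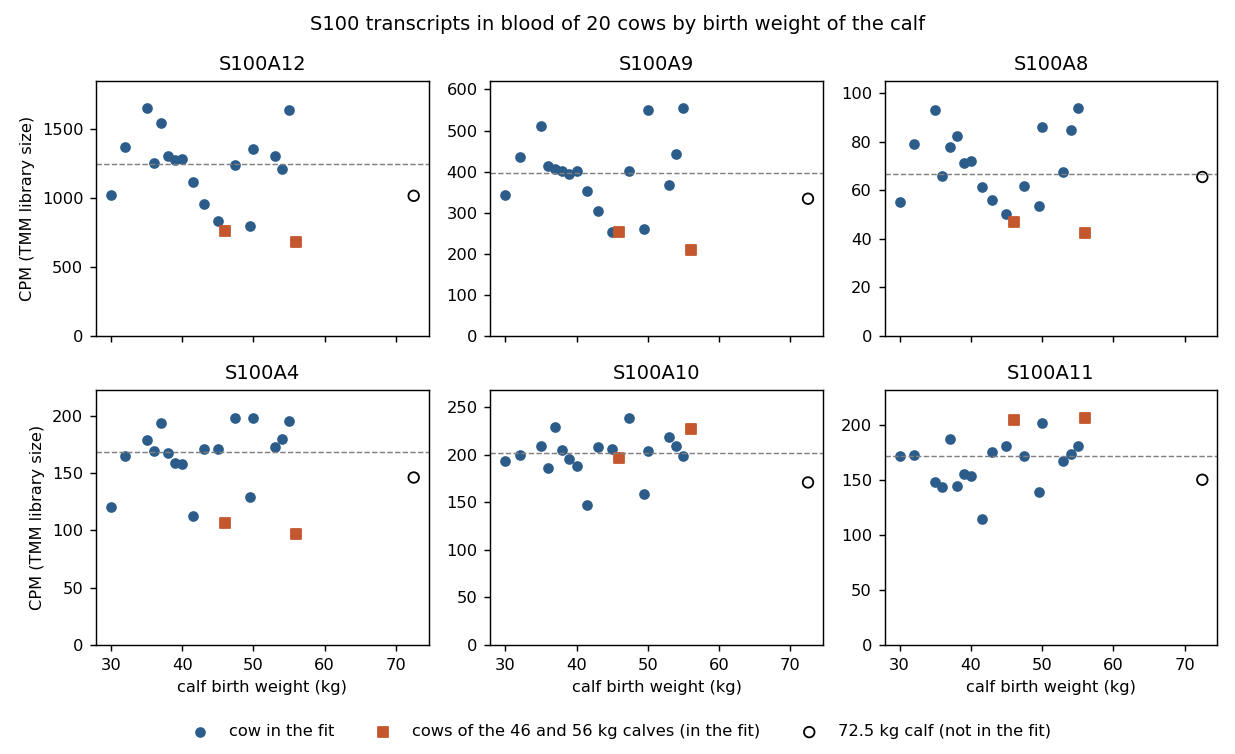
Level of each of the 6 S100 genes (CPM after TMM scaling, linear axis) against the birth weight of the calf (kg), 1 point per cow, with squares for the 46 and 56 kg calves, an open circle for the 72.5 kg calf outside the fit and a dashed line at the median. S100A8, S100A9, S100A12 and S100A4 are lowest in the cow of the 56 kg calf, where S100A11 is highest, and no gene rises or falls steadily with BW.

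The relation of the S100 genes to calf BW was asked with a slope in log2 units per kg, fitted to 19 cows because the study sets the 72.5 kg calf aside in its own differential expression. None of the 6 genes passed in edgeR's quasi-likelihood test with Benjamini-Hochberg adjustment over 16206 genes, where 0% of all genes passed. None of the 6 passed in DESeq2, where 0.819% of 23087 genes did, or in limma with voom. At an unadjusted p below 0.05 in edgeR the count of members was also 0, against 13.9% of all genes (6.78% with positive and 7.08% with negative slopes). Of the members, 3 had positive and 3 had negative slopes, with a median of -0.0020 per kg, beside -0.00072 for all genes tested, of which 46.6% were positive.

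The calgranulin slopes were all negative and small against their errors. S100A12 had a slope of -0.0110 ± 0.0097 per kg (SE, 19 cows; edgeR adjusted p = 0.666), which over the 26 kg between the lightest and heaviest of these calves is a fold of 0.820 with a 95% confidence interval from 0.569 to 1.18. S100A9 had -0.0052 ± 0.0104 (edgeR adjusted p = 0.875), a fold of 0.911 with an interval from 0.617 to 1.35. S100A8 had -0.0046 ± 0.0092 (edgeR adjusted p = 0.874), a fold of 0.920 with an interval from 0.651 to 1.301. All 3 intervals hold 1. The S100A8 and S100A9 slopes were positive, at 0.0018 and 0.0024 per kg, without the cow of the 56 kg calf. That of S100A12 was -0.0043 without this cow and -0.0196 without the dam of the 55 kg calf, the widest values with 1 cow left out.

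Among the others, S100A11 had the slope farthest from 0 for its error, 0.0090 ± 0.0054 per kg (SE, 19 cows; unadjusted p = 0.109 and adjusted p = 0.488 in edgeR's quasi-likelihood test). This is a fold of 1.18 over 26 kg, with a 95% confidence interval from 0.961 to 1.44. The slope of S100A10 was 0.0029 ± 0.0045 per kg (edgeR adjusted p = 0.825), a fold of 1.05 with an interval from 0.890 to 1.25. S100A4 had a slope of 0.00058 ± 0.0087 per kg (edgeR adjusted p = 0.985), a fold of 1.01 with an interval from 0.729 to 1.40. With the monocyte marker score as a covariate, chosen after seeing the data, its slope was 0.0096 ± 0.0043 per kg (unadjusted p = 0.0354 and adjusted p = 0.408 in edgeR). The cow of the 72.5 kg calf, outside these fits, had 146 CPM of S100A4, 334 of S100A9, 1014 of S100A12 and 170.7 of S100A10, each inside the range of the other cows.

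**Figure D2:**
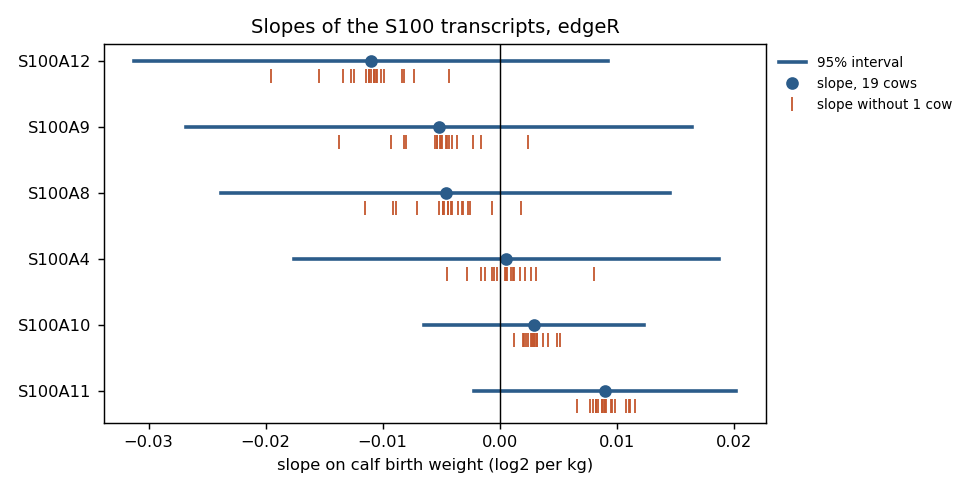
Slope of each S100 gene on calf BW (log2 units per kg) in 19 cows, with 95% confidence intervals from edgeR and ticks for the slopes with 1 cow left out. All 6 intervals cross 0, and those of S100A10 and S100A11 are the narrowest.

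Across the 20 cows the calgranulins formed the tightest set. Correlations are Pearson's r and Spearman's rho of log2(CPM + 1), tested by permutation with 100000 resamples, two-sided, and adjusted by the Benjamini-Hochberg method over 82 relations. The permutation p of 1e-05 is the smallest that these resamples can give. S100A8 and S100A9 had r = 0.94 and rho = 0.93 (permutation p = 1e-05 for each, adjusted p = 0.000117 for r and 0.000164 for rho). S100A9 and S100A12 had r = 0.94 and rho = 0.87, and S100A8 and S100A12 had r = 0.93 and rho = 0.91, with the same permutation and adjusted p. Without the 2 cows farthest from the median of the first gene these r were 0.91, 0.91 and 0.88. The 3 calgranulin genes thus kept their relation when the extreme cows were left out.

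The same genes stood close when set beside the whole table. Among the 16268 other genes tested, S100A9 was the gene with the highest r to S100A8 and also to S100A12, and S100A8 was the gene with the highest r to S100A9. S100A12 ranked 3 for S100A8 and 2 for S100A9. Count ratios within a cow, which no scaling of libraries can change, varied less than the genes themselves. The ratio of S100A8 to S100A9 counts ran from 0.154 through a median of 0.183 to 0.207, a 1.35-fold range. The ratio of S100A8 to S100A12 had a 1.40-fold range and that of S100A9 to S100A12 a 1.55-fold range. A narrow range was not particular to the calgranulins, since the ratio of S100A10 to S100A11, genes that varied less, had a 1.48-fold range. The handling of reads matching more than 1 gene is not given in the sources used here, so reads of similar members may have been split or dropped.

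S100A4 went with the calgranulins less closely. It had r = 0.75 with S100A12 (permutation p = 0.00016, adjusted p = 0.00131), 0.73 with S100A8 (permutation p = 0.00012, adjusted p = 0.00109) and 0.73 with S100A9 (permutation p = 0.00027, adjusted p = 0.00201). The Spearman rho were 0.64, 0.67 and 0.72 (permutation p = 0.00268, 0.00174 and 0.00058). These relations leaned on the 2 cows of the 46 and 56 kg calves, which were lowest for S100A4. Without both cows r was 0.56, 0.55 and 0.55, with permutation adjusted p of 0.0569, 0.0599 and 0.061.

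S100A10 and S100A11 varied together, with r = 0.71 and rho = 0.53 (permutation p = 0.00054 for r and 0.0166 for rho, adjusted p = 0.00369 and 0.0524). Without the 2 cows farthest from the median of S100A10, r was 0.44 (permutation p = 0.0689), so the relation rests in part on those cows. Without the cows of the 46 and 56 kg calves it was 0.74 (permutation adjusted p = 0.00358). With the calgranulins their r lay between -0.18 and 0.20 over 6 pairs, none with an adjusted p below 0.05. Counts of S100A11 relative to S100A12 ranged 3.39-fold, from 0.0901 in the cow of the 35 kg calf to 0.305 in that of the 56 kg calf. In total, 7 of the 15 pairs had an adjusted p below 0.05 for r.

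The place of S100A4 between these sets depended on the same 2 cows. In all 20 cows its r was 0.44 with S100A10 (permutation p = 0.0528, adjusted p = 0.144) and 0.09 with S100A11 (permutation p = 0.712, adjusted p = 0.783). Without the cows of the 46 and 56 kg calves, a choice made after their values were seen, r was 0.82 with S100A10 (permutation adjusted p = 0.00187) and 0.69 with S100A11 (permutation adjusted p = 0.0092). In these 18 cows S100A4 had a higher r with S100A10 than with any calgranulin, and the difference between the r values was not tested.

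**Figure D3:**
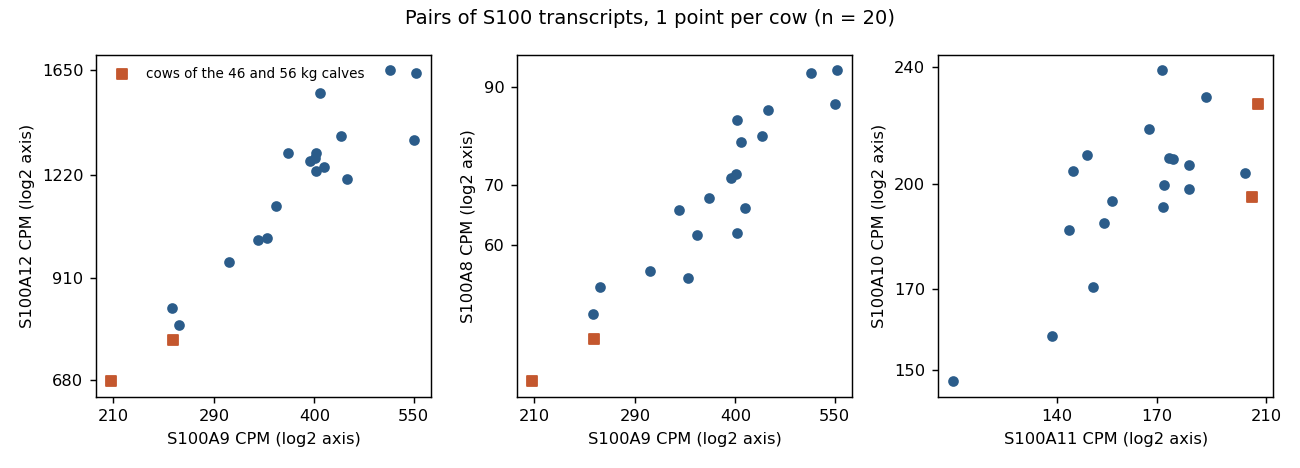
Levels (CPM, log2 axes) of S100A12 against S100A9, S100A8 against S100A9, and S100A10 against S100A11, 1 point per cow, with squares for the cows of the 46 and 56 kg calves. The points of the first pair of panels lie close to a line (r = 0.94 in each) and the squares sit low in both, whereas in the S100A11 panel (r = 0.71) the squares are at the right, with the highest S100A11.

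Blood cell markers were set beside the S100 genes, since cell counts were not used here. The lists name genes known to mark each cell type, and a score is the mean z-score of the list over the cows. The monocyte list had 8 of 8 genes tested, led by LYZ, FCN1 and VCAN, and its summed level ran from 2166 CPM in the cow of the 56 kg calf through a median of 3527 to 4640 CPM in that of the 37 kg calf. The neutrophil list had 8 of 8, CSF3R and MMP25 among its most abundant, at 2916 to 4776 CPM. The scores of the cows of the 56 and 46 kg calves on the monocyte list were -2.31 and -1.73, and the next lowest was -0.67. These cows also stood apart for the eosinophil receptor gene IL5RA, with scores of 2.19 and 1.67.

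The calgranulins and S100A4 followed the monocyte score. Its r was 0.90 with S100A12 and 0.87 with each of S100A8, S100A9 and S100A4 (each permutation p = 1e-05, adjusted p = 0.000117). The Spearman rho was 0.87, 0.90, 0.84 and 0.71 in that order, with permutation p of at most 0.00073. Without the cows of the 46 and 56 kg calves r was 0.87, 0.84, 0.82 and 0.74, with permutation adjusted p of at most 0.00358. With all cows kept, r for S100A10 and S100A11 was 0.11 (permutation p = 0.654, adjusted p = 0.756) and -0.25 (permutation p = 0.285, adjusted p = 0.459). Without the cows of the 46 and 56 kg calves it was 0.53 and 0.36 (permutation adjusted p = 0.0685 and 0.275). The gap between these genes and the other members was thus smaller without those cows, and it was not tested.

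The neutrophil score also went with the calgranulins. Its r was 0.68 for S100A8 (permutation p = 0.00103, adjusted p = 0.0065), 0.66 for S100A9 (permutation p = 0.00164, adjusted p = 0.00961) and 0.56 for S100A12 (permutation p = 0.0105, adjusted p = 0.0376). The rho of these genes were 0.68, 0.60 and 0.57 (permutation p = 0.0013, 0.00663 and 0.00964), and r without the 2 farthest cows was 0.61, 0.54 and 0.50. Without the cows of the 46 and 56 kg calves r was higher, at 0.76, 0.73 and 0.61 (permutation adjusted p = 0.00301, 0.00389 and 0.033). For S100A4 r was 0.34 (permutation p = 0.137, adjusted p = 0.273). Whether the monocyte and neutrophil r differ was not tested. With both scores held fixed, r fell from 0.943 to a partial r of 0.585 for S100A8 with S100A9, from 0.927 to 0.575 for S100A8 with S100A12 and from 0.942 to 0.683 for S100A9 with S100A12. It was -0.05, -0.03 and -0.10 for S100A4 with S100A8, S100A9 and S100A12. In the same fit S100A4 had partial r of 0.72 with S100A10 and 0.75 with S100A11, and S100A10 had 0.78 with S100A11. With both scores held fixed, these pairs thus had higher values than any calgranulin pair. These partial values are a description without a test.

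Among the other marker lists, 3 had relations to calgranulins with an adjusted p below 0.05. The neutrophil granule list, led by CHI3L1, LCN2 and MPO (7 of 12 genes tested, 100.2 to 319 CPM), had r of 0.56, 0.57 and 0.57 with S100A8, S100A9 and S100A12 (permutation adjusted p = 0.0289, 0.03 and 0.0289). The erythroid list, led by HBB, ALAS2 and EPB42 (8 of 8, 55.9 to 1106 CPM), had r of 0.54, 0.58 and 0.58 with the same genes (permutation adjusted p = 0.0429, 0.0289 and 0.0289). The platelet list, led by ITGB3, PF4 and ITGA2B (6 of 6, 372 to 1182 CPM), had r of 0.53 with both S100A8 and S100A9 (permutation adjusted p = 0.0429 and 0.0464). Without the cows of the 46 and 56 kg calves, r was 0.53, 0.55 and 0.56 for the granule list (permutation adjusted p = 0.0599, 0.061 and 0.0592), 0.46, 0.53 and 0.52 for the erythroid list (0.142, 0.0715 and 0.0773) and 0.40 for both platelet relations (0.22 for each), so that the calls were lost with little change in r for the granule list. The T cell list, led by ZAP70, CD3E and LCK (8 of 8, 1023 to 1560 CPM), had no relation to a member with an adjusted p below 0.05.

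S100A11 and S100A10 went with other lists. S100A11 had r = 0.78 and rho = 0.76 with IL5RA, a receptor subunit of eosinophils (permutation p = 2e-05 for r and 0.00015 for rho, adjusted p = 0.000205 and 0.00176), and r = 0.70 without the cows of the 46 and 56 kg calves (permutation adjusted p = 0.00568). IL5RA ran from 20.2 through a median of 58.8 to 199.9 CPM and was the only gene of the eosinophil list that could be tested. CCR3 and ALOX15 had 0 counts in every cow, and 3 further genes of the list had no entry in the table used. For a limit of 3 counts, 0 counts allow at most 0.0752 to 0.122 CPM per library. That limit holds only if reads could be assigned to CCR3 and ALOX15, which was not tested. S100A11 also had r = 0.58 with the NK cell list (NCR1, PRF1 and GZMB leading, 6 of 6, 126.8 to 237 CPM; permutation p = 0.00694, adjusted p = 0.0289), with rho = 0.62. S100A10 had r = -0.615 with the B cell list, led by BANK1, MS4A1 and CD79B (7 of 7, 936 to 1788 CPM; permutation p = 0.00385, adjusted p = 0.021), with rho = -0.59. Without the 2 cows farthest on each list, r was 0.79 for IL5RA, 0.50 for the NK cell list and -0.56 for the B cell list. In all, 18 of 54 relations between members and lists had an adjusted p below 0.05, and the relation of the 6 members to the total count of the library had none. What part the mix of blood cells had in these relations was not tested.

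**Figure D4:**
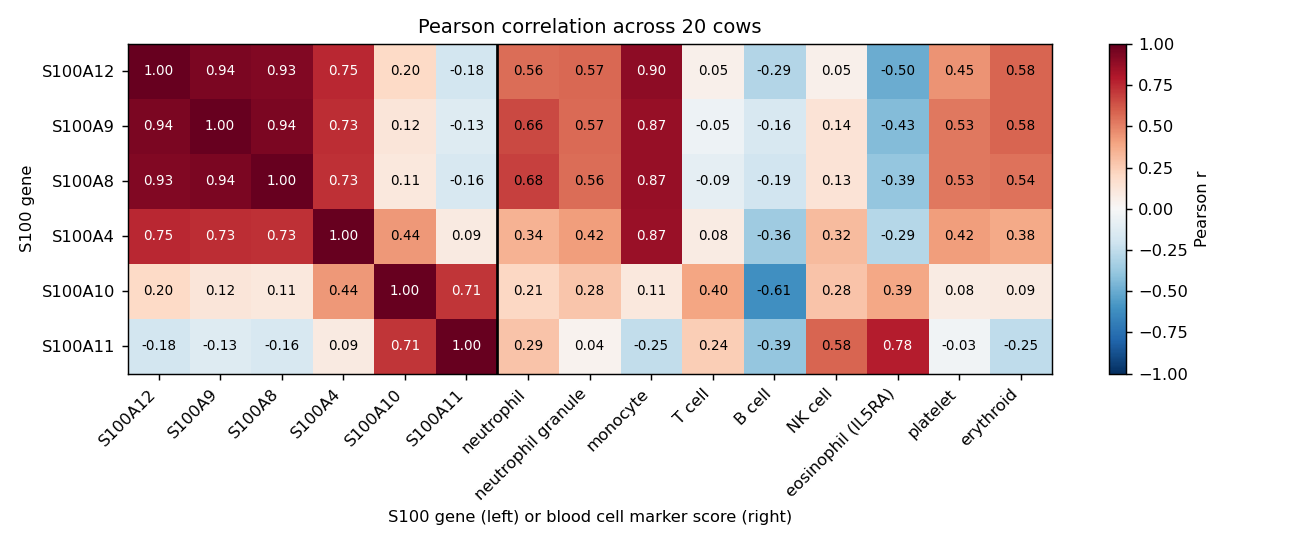
Pearson r over 20 cows (log2(CPM + 1)) between the 6 S100 genes and between them and the blood marker scores. S100A8, S100A9, S100A12 and S100A4 have r from 0.87 to 0.90 with the monocyte score, while S100A11 has r = 0.78 with the eosinophil column, which is IL5RA alone.

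The genes with the highest r to each member were then listed, the first 3 among all genes tested other than the S100 members themselves. For S100A8 they were CD163 (0.93), RAB31 (0.93) and WLS (0.89), and for S100A12 OTULINL (0.93), CD163 (0.92) and DOCK1 (0.90). For S100A9 they were PIK3CD (0.90), CD163 (0.89) and PFKFB4 (0.88). CD163, a scavenger receptor of monocytes and macrophages, was thus among the first 3 non-members for every calgranulin. S100A4 went first with CCR2 (0.93), the chemokine receptor of classical monocytes, then PREB (0.92) and CSF1R (0.92), the receptor of the monocyte growth factor. S100A11 went with TGFB1, PTPA and STXBP2 (each 0.92) and S100A10 with KIAA2013 (0.87), STXBP2 (0.83) and LOC617374 (0.82), so STXBP2 was shared by both. These values describe 20 cows and are not tests, since the genes were picked for their r.

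Textbook partners of the S100 proteins were set beside them in the same family of tests. S100A10 had r = 0.54 and rho = 0.45 with ANXA2, its partner in the plasma membrane tetramer (permutation p = 0.0127, adjusted p = 0.0429), and r = 0.78 without the cows of the 46 and 56 kg calves. S100A11 had r = 0.60 and rho = 0.55 with ANXA1 (permutation p = 0.00495, adjusted p = 0.0254), and 0.47 without those cows (permutation adjusted p = 0.14). Over the 16268 other genes, with all cows kept, the 95th percentile of r was 0.516 for S100A10 and 0.611 for S100A11. The r of ANXA2 lay just above this level and that of ANXA1 below it. Whether either relation is specific to the partner was not tested. MYH9, the non-muscle myosin heavy chain, had r = -0.08 with S100A4 (permutation p = 0.747) and AGER had r = -0.40 with S100A12 (permutation p = 0.0804, adjusted p = 0.194). Without the cows of the 46 and 56 kg calves the r of MYH9 with S100A4 was 0.59 (permutation adjusted p = 0.0405). TLR4, a receptor for calprotectin, had r = 0.15 with S100A8 and 0.22 with S100A9, and BSG had 0.34 with S100A9, none of them with an adjusted p below 0.05.

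Other genes of the S100 family and its partners were described on calf BW with the same edgeR fit, for which 0% of all genes passed after adjustment and 13.9% had an unadjusted p below 0.05. Of 12 other S100 genes listed, 11 had an identifier and 7 were tested, of which 2 had positive and 5 negative slopes, with a median of -0.0041 per kg and 0 at an unadjusted p below 0.05. Among these the genes with the smallest p were S100B, S100A7 and S100A1, with unadjusted p of 0.649, 0.652 and 0.709 in edgeR's quasi-likelihood test. S100A13 had a median of 72.6 CPM (39.4 to 95.2), S100A1 of 17.02 and S100A7 of 15.5 CPM. S100G and S100Z had 0 counts in all 20 cows. By counting error alone this allows at most 0.0752 to 0.122 CPM per library. Whether reads could be assigned to these identifiers was not tested, so a 0 does not show that the genes were silent.

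Annexins, calcium-dependent membrane-binding proteins that several S100 dimers join, had 8 of 8 genes tested, 2 with positive and 6 with negative slopes and a median of -0.0045 per kg, and 2 of the negative slopes had an unadjusted p below 0.05 (7.08% of all genes). ANXA3 had a slope of -0.034 per kg (SE 0.0092; unadjusted p = 0.00132 and adjusted p = 0.137 in edgeR, adjusted p = 0.0385 in DESeq2), at only 1.79 to 6.38 CPM. ANXA4 had a slope of -0.0116 per kg (unadjusted p = 0.0382 in edgeR) and ANXA7 0.0061 (unadjusted p = 0.0686 in edgeR). Receptors and their signalling had 8 of 8 tested, 3 with positive and 5 with negative slopes and a median of -0.0035, and 1 positive slope had an unadjusted p below 0.05 (6.78% of all genes). The adhesion molecule ALCAM had a slope of 0.030 per kg (SE 0.0087; unadjusted p = 0.0024 and adjusted p = 0.162 in edgeR, adjusted p = 0.0486 in DESeq2). It was followed by CD36 (unadjusted p = 0.119 in edgeR), at a median of only 0.359 CPM, and AGER (0.0112 per kg, unadjusted p = 0.154 in edgeR). Intracellular partners had 9 of 10 tested, AHNAK being listed at 0 in every cow, with 7 positive and 2 negative slopes and a median of 0.0015, and 2 positive slopes had an unadjusted p below 0.05. MYH9 had a slope of 0.0100 per kg (unadjusted p = 0.0129 and adjusted p = 0.232 in edgeR) and NCF1, of the phagocyte oxidase, 0.0083 (unadjusted p = 0.142). These lists were small, and their medians are given beside -0.00072 for all genes tested without a claim that any list stands apart.

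The marker lists were fitted on BW in the same way. All 8 monocyte genes had negative slopes, with a median of -0.0088 per kg and 0 at an unadjusted p below 0.05 in edgeR, and the calgranulin slopes had the same sign. Neutrophil genes were split 4 and 4, with a median of -0.000017. The medians were -0.0017 for T cell, -0.0071 for B cell, 0.0029 for NK cell, 0.0083 for platelet, -0.026 for neutrophil granule and -0.044 for erythroid genes, and IL5RA had 0.053 per kg. At an unadjusted p below 0.05 in edgeR, the granule list had 2 genes with negative slopes and 1 with a positive slope, the neutrophil, NK cell, eosinophil and platelet lists had 1 each with a positive slope, and the erythroid list had 1 with a negative slope. Of all genes tested, 6.78% passed this threshold with positive and 7.08% with negative slopes. None of the marker genes had an adjusted p below 0.05 in edgeR, where the smallest were those of the granule genes LTF (-0.20 per kg, adjusted p = 0.0976) and PGLYRP1 (-0.16 per kg, adjusted p = 0.109). Both passed in DESeq2 (adjusted p = 0.0075 and 0.0093), and they are named here after their values were seen. Their levels were low in most cows. LTF had a median of 1.45 CPM (0.167 to 48.5). PGLYRP1 had a median of 0.581 CPM (0 to 6.34), with 0 counts in 2 cows.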

How the data were processed

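RNA was measured in whole blood of 20 cows, 1 library each. After trimming (Trimmomatic) and alignment (STAR 2.7.0b), the authors counted reads with featureCounts (Subread 2.0.3), per the labels and methods. The deposited values are raw counts per Entrez identifier and are not normalized. The strand setting and the handling of reads matching more than 1 gene are not given in the sources used here. The labels name a SMARTer Stranded kit and the methods a TruSeq stranded mRNA kit.

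Genes reaching 10 counts in 5 or more cows were fitted with edgeR 4.0.16 (R 4.3.3; TMM, quasi-likelihood test) for their slope per kg of BW over 19 cows, with Benjamini-Hochberg adjustment of the p-values. The alternatives were DESeq2 1.42.0, voom in limma 3.58.1, other filters, size factors, cows, the rank of BW and covariates. Correlations used log2(CPM + 1) and 100000 permutations. Members, lists and alternatives were chosen with earlier results of these data known. Named genes are the members, the 3 non-member genes with the highest r to each, the 3 smallest p of each partner list and the 3 most abundant of each marker list, except 2 genes of these lists whose own values are not reported here. The correlations with textbook partners, the monocyte covariate, the partial correlations and the fits without the cows of the 46 and 56 kg calves were chosen after seeing the data. Replicate numbers only name samples, and p-values measure the spread between cows. The slope fits were tested on simulated counts and the permutation test of a correlation on simulated pairs of values.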

Additional observations from a re-analysis of the deposited data

How the results depend on the processing

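No member had an adjusted p below 0.05 for its slope on calf BW under any alternative, including each cow left out in turn. The number of all genes called was 0 in edgeR, 189 in DESeq2, 147 with every gene that had a count, 4 in all 20 cows, 1 with total count as a covariate and 0 to 34 with 1 cow left out, the 34 arising without the 32 kg calf's dam and 1 or 2 without the dams of the 30, 35, 36, 41.5 or 46 kg calves. An unadjusted p below 0.05 arose for S100A11 without the 49.5 kg calf's dam (edgeR, 0.0487) and for S100A4 with the monocyte score (edgeR, 0.0354, slope 0.009611). Many genes reached that p in the same fits. Without the 49.5 kg calf's dam 1261 of 16102 genes did so with positive and 1041 with negative slopes. With the monocyte score these were 865 and 992 of 16206 genes. Slopes near 0 changed sign. That of S100A4 was -0.001241 in voom, -0.001231 in all 20 cows, -0.0006417 on the rank of BW, -0.00178 with the neutrophil score, and -0.004525 to 0.008075 with 1 cow left out. Those of S100A8 and S100A9 were 0.004316 and 0.003063 with the monocyte score, 0.003387 and 0.004029 without the cows of the 46 and 56 kg calves, and -0.01147 to 0.001828 and -0.01374 to 0.002378 with 1 cow left out. S100A10 had -0.001017 in all 20 cows. S100A12 kept its sign, at -0.01957 to -0.004302 with 1 cow left out and -0.001591 with the monocyte score. With the neutrophil score the calgranulin slopes lay farther from 0 than without a covariate. They were -0.01685 for S100A12 (SE 0.00832, edgeR adjusted p = 0.357), -0.01083 for S100A8 and -0.01279 for S100A9. The relations of members to marker lists with an adjusted p below 0.05 numbered 18, but 7 without the 2 farthest cows and 11 without the 56 kg calf's dam. The r of S100A11 with S100A8 and S100A9 turned to 0.204 and 0.1558 without the 2 farthest cows, 0.004128 and 0.06719 without the 56 kg calf's dam, and 0.204 and 0.268 without those of the 46 and 56 kg calves, when that with S100A12 was 0.2005. The cause was not tested. No paired analysis was possible because all cows belonged to 1 group.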
